A study of Mus musculus with 8 samples.

Results

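Heat shock proteins and chaperonins are the proteins that fold, hold and refold other proteins. Members were chosen by gene symbol: every probe set named for a single gene of the Hsp (Hspa, Hspb, Hspd, Hspe, Hsph or Hsp followed by a digit) or Dnaj families, for Tcp1 or 1 of 7 Cct genes, or for St13, Stip1, Hsf1 or Hsf2. That gave 82 of 12422 probe sets, for 58 of 8251 genes, with 18 of the genes on more than 1 probe set. No probe set of the table bore the names Hsp90ab1 or Hsf1 under this rule, so the second cytosolic HSP90 and the main heat shock factor were not analysed here. Also left out were 2 probe sets with several gene symbols that included a member's name.

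Total RNA of mouse double positive thymocytes was measured on 8 arrays. These cells are the stage of T cell development that carries both CD4 and CD8, in a study of engaging the T cell receptor with antibodies. The sample titles give 4 groups of 2 arrays: control, overnight control, Valpha2 and Vbeta5, where the last pair are names of variable segments of the receptor's alpha and beta chains. A group consists of 1 array titled Data 1 and 1 titled Data 2, and the former is always given first below. The antibody clones, their doses, the culture times, the mouse strain, genotype and age, and whether the arrays of a group came from separate animals are not stated in the labels. The spread behind the p-values below is therefore that between arrays, and it may be technical. Values are the deposited signals, linear intensities in arbitrary units that are compared only within a probe set.

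HSP70 proteins bind exposed stretches of unfolded chains in a cycle driven by ATP. J proteins deliver the chains and start the hydrolysis, and HSP110 proteins such as Hsph1 exchange the nucleotide. HSP90 takes over clients such as kinases (in T cells, the receptor-proximal kinase Lck), the CCT ring folds actin and tubulin, and the Hspd1 and Hspe1 ring folds proteins in the mitochondrion. Heat shock factors raise many of these genes through heat shock elements in their promoters, and the endoplasmic reticulum members, among them Hspa5 (BiP), Hsp90b1 and Dnajc3, carry a different element used in the unfolded protein response.

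RefSeq promoter windows (GRCm38.p6, 250 bases before to 50 after an annotated start) were found for 49 of the 58 genes, in 63 windows. Of the 32851 windows of all genes, 0.603% held the heat shock element searched as TTCNNGAANNTTC on both strands, and 9.52% of the members' windows did, those of Hspd1, Hspe1, Dnajb6 and Hsph1. The endoplasmic reticulum stress element, searched as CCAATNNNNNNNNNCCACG on both strands, was in 0.119% of all windows and in 4.76% of the members' windows, those of Hspa5, Hsp90b1 and Dnajc3. The heat shock element matches of Dnajb6 and of Hsph1 are each counted in overlapping windows of alternative starts. By gene, that element was in 0.662% of all genes and in 8.16% of the members with a window. All of these are matches of letters only. They are printed because the results below turn on Hsph1, Hspa5, Hsp90b1 and Hspd1. Each is 5′ to 3′ on the gene's strand, with the match in capitals. The 3 with heat shock elements come first, and the stretch of Hspe1 also lies, on the other strand, in the window of Hspd1, its divergently transcribed neighbour.
Hspe1, chr1:55088053-55088082, plus strand: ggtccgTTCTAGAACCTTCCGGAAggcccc
Dnajb6, chr5:29735846-29735870, plus strand: ctccgaGAATCTTCCGGAAcgctag
Hsph1, chr5:149636287-149636308, minus strand: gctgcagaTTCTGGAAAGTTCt
Hspa5, chr2:34771985-34772083, plus strand: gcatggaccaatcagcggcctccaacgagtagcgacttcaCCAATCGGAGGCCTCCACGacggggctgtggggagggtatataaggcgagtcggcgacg
Hsp90b1, chr10:86705493-86705694, minus strand: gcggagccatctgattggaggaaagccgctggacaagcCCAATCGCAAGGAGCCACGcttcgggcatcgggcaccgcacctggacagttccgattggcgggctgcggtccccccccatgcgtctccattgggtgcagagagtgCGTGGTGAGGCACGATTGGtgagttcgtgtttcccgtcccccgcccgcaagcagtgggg
Dnajc3, chr14:118937787-118937885, plus strand: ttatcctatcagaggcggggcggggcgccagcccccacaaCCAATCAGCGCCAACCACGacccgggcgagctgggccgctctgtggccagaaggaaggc
In Hspe1 and in Hsp90b1 the capitals cover 2 matches, overlapping in Hspe1 and apart in Hsp90b1. The Hsph1 match lies after the annotated start, and those of Hspa5, Hsp90b1 and Dnajc3 lie before it.

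The median signal of the arrays was 73.8 to 110.4. The 3' to 5' log2 ratio of the Gapdh control probe sets, which rises when RNA is degraded, was 0.95 on overnight control array 1, 1.72 on Valpha2 array 1 and 0.48 on Vbeta5 array 1, and -0.28 to -0.09 on the other 5. The summed signal of 11 probe sets for 8 double positive markers (among them Cd4, Cd8a and Rag1) was 48130 to 54510 in control, 64840 to 71500 in overnight control, 54220 to 73810 in Valpha2 and 16370 to 32660 in Vbeta5. This sum was lowest in Vbeta5, and such sums are weighted toward their brightest probe sets. On 8 of the 11, both Vbeta5 arrays lay below both overnight control arrays (15.2% of all tested probe sets), and on 0 above (15.8%). Cd3e overlapped, at 4669.3 and 2670.9 in Vbeta5 and 2445.8 and 3382.1 in overnight control. In Vbeta5 against overnight control 2 of the 11 fell by limma. In these bulk samples fewer cells of a type and less RNA per cell cannot be told apart. B cell markers (6 probe sets) summed to 304.9 to 445.7 in control and to 768.6 to 831.9 in overnight control, 702.8 to 810.1 in Valpha2 and 527.6 to 538.3 in Vbeta5. MHC class II cell markers (4 probe sets) summed to 180.8 to 337 in control, 209.2 to 494.2 in overnight control, 229.9 to 241.7 in Valpha2 and 533.4 to 668.5 in Vbeta5. Macrophage markers (11 probe sets, 4 of them under 17 on every array) summed to 275.3 to 296.1 in control and 373.8 to 875.4 in overnight control. They summed to 373.5 to 416.2 in Valpha2 and 469.5 to 590.3 in Vbeta5. Over all arrays fibroblast markers (8) summed to 526.8 to 1439, erythroid markers (2) to 113 to 374.1 and thymic epithelial markers (5, 1 of them under 17 on every array) to 77.1 to 242.6. No probe set of these lists was at 0, and none of the tested ones outside the double positive list passed the test in any comparison. The part of any of these in the results below was not tested.

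No member passed the threshold in any of the 6 comparisons among the 4 groups. Fold changes are differences of log2(signal + 17) between group means, from 1 limma fit of all 8 arrays, and a call is an adjusted p of at most 0.05 over the 8281 probe sets bright enough to test. Values followed by ± and SE below are such log2 fold changes. Of the members, 68 probe sets of 53 genes were tested and 14 were too dim. The background of calls was itself low: 0.616% of all tested probe sets in Vbeta5 against overnight control, 0% in Valpha2 against overnight control, 0.278% in Vbeta5 against Valpha2, 0.217% in overnight control against control, 1.64% in Vbeta5 against control and 0.399% in Valpha2 against control. The SE of a member's fold change was 0.2 to 0.66, with a median of 0.33, so an absent call does not show that a gene was level. Where 2 comparisons share a group of arrays their values are not independent.

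At an unadjusted p under 0.05 the members' count was furthest above its background in Vbeta5 against overnight control, at 13 of 68 (19.1%) beside 8.43% of all tested probe sets. That count depends on the processing and in part on single arrays. With quantile normalization it was also 13 of 68, beside 9.15% of all tested probe sets. With the data number as a block in the fit it was 15, beside 11.3%. Leaving out Vbeta5 array 2 gave 4 of 68 members, beside 6.61% of all tested probe sets, and leaving out Vbeta5 array 1 gave 5, beside 6.39%. It was 8, beside 11.5%, when array 1 of overnight control was dropped, and 13, beside 14%, when array 2 was. With arrays scaled to a common median it was 7 of 68, a larger share than the 6.46% of all tested probe sets. With only the 4 arrays compared it was 7, also a larger share than the 5.86% of all tested probe sets. The other comparisons were near their backgrounds. Valpha2 against overnight control had 0 of 68 beside 1.59%. Vbeta5 against Valpha2 had 6 (8.82%) beside 8.16%, and overnight control against control had 6 (8.82%) beside 9.04%. Vbeta5 against control had 9 (13.2%) beside 11.1%, and Valpha2 against control had 5 (7.35%) beside 7.39%. Of the 13, the positive ones were Hsph1, Hspa5, Hspa4l, Hsp90aa1, Hsp90b1, Dnaja1, Dnajb2 and both St13 probe sets, and the negative ones were Dnajc15, Dnajc7, Dnajb8 and Hspb11.

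A second description is whether both arrays of a group lay above or below both of the other. In Vbeta5 against overnight control 16 members (23.5%) lay above and 12 (17.6%) below, beside 15.8% and 15.2% of all tested probe sets. In Valpha2 against overnight control these were 12 (17.6%) and 3 (4.41%) beside 10.5% and 10.2%. In Vbeta5 against Valpha2 they were 13 (19.1%) and 9 (13.2%) beside 21.7% and 18.5%. In overnight control against control they were 11 (16.2%) and 13 (19.1%) beside 21.6% and 16.3%. In Vbeta5 against control they were 19 (27.9%) and 14 (20.6%) beside 29.3% and 19%, and in Valpha2 against control 18 (26.5%) and 12 (17.6%) beside 25.8% and 16.7%.

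The members had no common direction. Their median log2 fold change was 0.085 in Vbeta5 against overnight control, beside -0.011 over all tested probe sets, and -0.002 without Vbeta5 array 2. It was 0.095 in Valpha2 against overnight control (all tested, -0.023), and -0.008 without overnight control array 1. In overnight control against control it was -0.066 (all tested, 0.1), and 0.157 without overnight control array 1. In Vbeta5 against control it was 0.115 (all tested, 0.079), in Valpha2 against control 0.07 (all tested, 0.07) and in Vbeta5 against Valpha2 0.023 (all tested, 0.022). Scaling all arrays to a common median turned these last 3 medians negative, to -0.082, -0.067 and -0.037. The medians over all tested probe sets moved with them, to -0.117, -0.067 and -0.037. The classes differed more than the members as a whole, as the plot of fold changes by class shows.

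**Figure D1:**
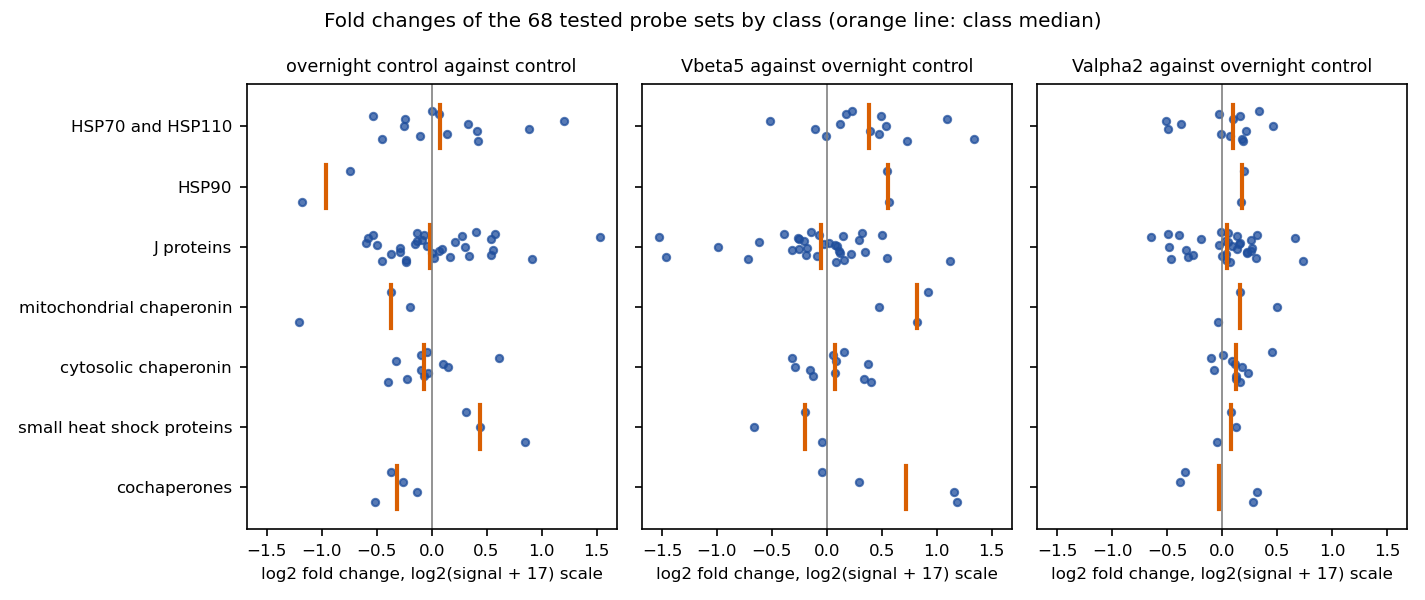
Log2 fold change of each of the 68 tested member probe sets (dots) by class, on a shared x axis in log2 units of signal + 17, for overnight control against control, Vbeta5 against overnight control and Valpha2 against overnight control; the orange marks are class medians. Both HSP90 probe sets lie left of 0 in the first panel and right of 0 in the second, and no dot passed the test.

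The HSP70 and HSP110 class (15 probe sets, 11 genes) had 13 tested probe sets, for 9 genes. In Vbeta5 against overnight control 10 of the 13 were higher, beside 48.7% of all tested probe sets, with none called. Every Hspa4 probe set is among the 10 (log2 fold changes 0.12 to 0.54), so 1 gene weighs on the count and on the class median. The class median log2 fold change was 0.387 beside -0.011 over all tested probe sets, and 0.115 to 0.523 when any single array was left out. Against control 11 of 13 were positive in Vbeta5, beside 57% of all tested probe sets. The median there was 0.603, beside 0.079 over all tested probe sets. In Valpha2 it was 0.132 against control, beside 0.07 over all tested probe sets. With arrays scaled to a common median that class median turned to -0.005, and the median over all tested probe sets to -0.067. Valpha2 against overnight control had a class median of 0.099, which turned to -0.017 without Valpha2 array 2. The Vbeta5 arrays had the lowest double positive marker sums and the highest MHC class II marker sums, whose part was not tested.

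Hsph1, the HSP110 that exchanges nucleotide on HSP70, had the smallest adjusted p of any member. Its signal was 385.4 and 289 in control, 260.5 and 219.9 in overnight control, 264.1 and 281.4 in Valpha2 and 610.9 and 649.4 in Vbeta5. Both Vbeta5 arrays lay above the other 6, and the other 6 lay between 219.9 and 385.4. The group means were 630.2 ± 27.22 against 240.2 ± 28.71 (SD, n = 2) for Vbeta5 against overnight control, a 2.52-fold ratio (log2 fold change 1.34 ± 0.26 SE, limma adjusted p = 0.0581), with 1.18 within Data 1 and 1.49 within Data 2. Hsph1 missed the threshold, and was called when the dimmest 50% of the probe sets, not the dimmest 33.3%, were left out (limma adjusted p = 0.0489). The smallest limma adjusted p of any member there was 0.147 with a common median and 0.0525 with quantile normalization. It was 0.166 without the variance trend and 0.168 with only the 4 arrays compared. With the data number as a block in the fit, Hsph1 was called (limma adjusted p = 0.0257). Against Valpha2 the log2 fold change was 1.16 ± 0.26 SE, limma adjusted p = 0.128, with 1.16 in each data number, and against control it was 0.88 ± 0.26 SE, limma adjusted p = 0.173.

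Hspa5, the HSP70 of the endoplasmic reticulum, had 713.2 and 958.8 in control, 498.6 and 967.6 in overnight control, 558.1 and 996 in Valpha2 and 1091.3 and 2056.1 in Vbeta5. Within each group the Data 2 array was the higher, and both Vbeta5 arrays lay above all others. The difference of Vbeta5 from overnight control was 1.10 within Data 1 and 1.07 within Data 2 (log2 fold change 1.09 ± 0.40 SE, limma adjusted p = 0.436). Against Valpha2 it was 0.99 ± 0.40 SE, limma adjusted p = 0.522. Without the 3 arrays of higher 3' to 5' ratio, Hspa5 was called higher in Vbeta5 than in control (log2 fold change 1.30, limma adjusted p = 0.0214), with 1 Vbeta5 array left, which is assumed to vary like the control arrays, the only group with 2 arrays in that fit.

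Hspa8, the constitutive cytosolic HSP70, read 903.9 and 1461.3 in control, 1454.5 and 1613.6 in overnight control, 1898.4 and 1692.3 in Valpha2 and 1660.6 and 2430.3 in Vbeta5. The lower control array was the lowest of the 8, and the Vbeta5 arrays lay above both control arrays (log2 fold change 0.8 ± 0.28 SE, limma adjusted p = 0.271), as did those of Valpha2 (0.63 ± 0.28 SE, limma adjusted p = 0.647). Hspa4l, a relative of HSP110, read 192.3 and 303.7 in control, 296.3 and 366.9 in overnight control, 292.9 and 491.5 in Valpha2 and 512.5 and 609.2 in Vbeta5. Its Vbeta5 arrays were the highest of the 8 (0.73 ± 0.33 SE, limma adjusted p = 0.58 against overnight control, and 1.15 ± 0.33 SE, limma adjusted p = 0.149 against control).

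Hspa4, also of the HSP110 family, was on 5 probe sets, which differed from each other. One read 376.3 and 329 in control, 454.3 and 332.2 in overnight control, 444.9 and 336.7 in Valpha2 and 563.8 and 523.4 in Vbeta5, with both Vbeta5 arrays above the rest (0.6 ± 0.27 SE, limma adjusted p = 0.439 against control). A second read 257 and 440.9 in control, 214.8 and 365.1 in overnight control, 361.9 and 426.8 in Valpha2 and 348.1 and 495.9 in Vbeta5, and another 299.1 and 490.9 in control, 346.2 and 471.2 in overnight control, 383.2 and 409.7 in Valpha2 and 507.9 and 407.8 in Vbeta5, where the groups overlapped. The remaining pair ranged from 38.8 to 85.3 and from 66.6 to 200 over the arrays, and there the only separate pair was Valpha2 above control, on the former.

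Hspa9, the mitochondrial HSP70, read 538.2 and 508.6 in control, 407.2 and 574.3 in overnight control, 477.9 and 543 in Valpha2 and 480.2 and 478.9 in Vbeta5, with Vbeta5 just below control and the other pairs overlapping. Hspa14, an HSP70 bound to ribosomes, read 301.5 and 302.1 in control, 166.5 and 250.4 in overnight control, 182.7 and 291.3 in Valpha2 and 218.3 and 391.9 in Vbeta5, with both overnight control and both Valpha2 arrays below both control arrays. The stress-inducible Hspa1a read 36.8 and 23.7 in control, 112.8 and 41.2 in overnight control, 50.8 and 39.8 in Valpha2 and 54.9 and 73.7 in Vbeta5. Its near-identical copy Hspa1b, too dim to test, read 19.5 and 19.6 in control, 97.5 and 27.7 in overnight control, 34.5 and 15.6 in Valpha2 and 16.5 and 26.1 in Vbeta5. Control was the lowest group for Hspa1a. On both probe sets overnight control array 1 was the highest of the 8, an array of raised 3' to 5' ratio, and the copies may share signal, so they are uncertain. Hspa1l and Hspa2, best known from testis, ranged from 12.1 to 117 and from 4.8 to 50.8.

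**Figure D2:**
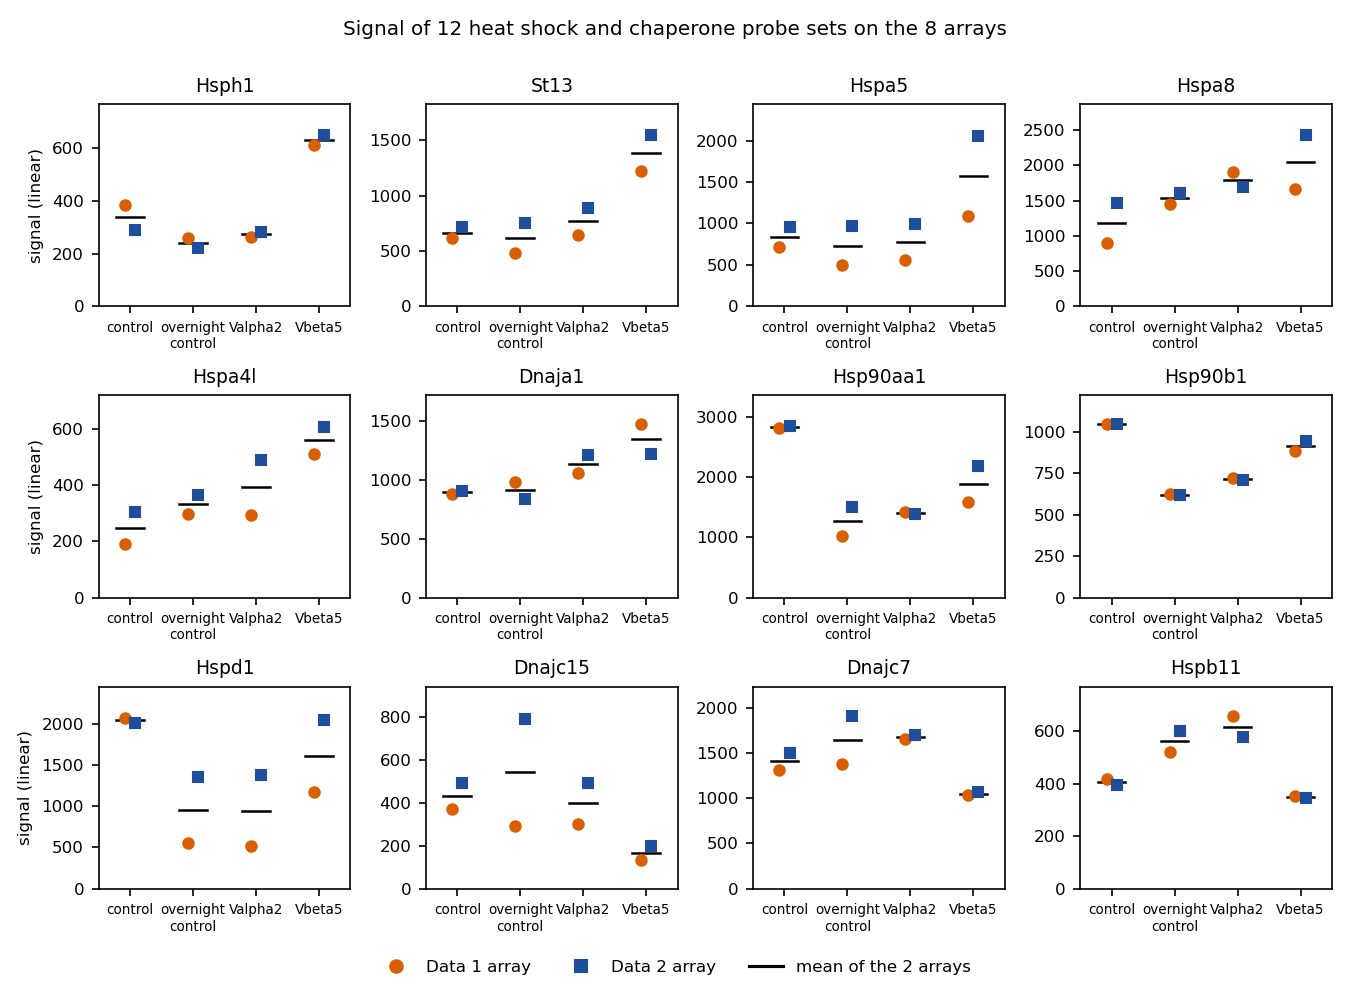
Deposited signal (linear intensity, arbitrary units, y axes from 0) of 12 members on all 8 arrays by group, with circles for Data 1, squares for Data 2 and a black line at the mean of 2 arrays; a gene with several probe sets is shown by the one of highest mean. Both Hsph1 values of Vbeta5 (610.9 and 649.4) lie above the other 6 arrays, and both Hsp90aa1 values of control (2829.6 and 2853) lie above the other 6.

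The 2 tested HSP90 probe sets were lower in overnight control, Valpha2 and Vbeta5 than in control, without a call. Hsp90aa1, the inducible cytosolic HSP90, read 2829.6 and 2853 in control, 1026.6 and 1513.5 in overnight control, 1418 and 1399.4 in Valpha2 and 1586.2 and 2193.8 in Vbeta5. The 2 control arrays lay above all others, and the Vbeta5 arrays above those of overnight control. Overnight control against control had means of 1270 ± 344.3 against 2841 ± 16.55 (SD, n = 2) (log2 fold change -1.18 ± 0.25 SE, limma adjusted p = 0.0973), with -1.45 within Data 1 and -0.91 within Data 2. It was called when overnight control array 2 was left out (-1.45, limma adjusted p = 0.0417), which leaves 1 array, that of raised 3' to 5' ratio, assumed to vary like the other groups.

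In Valpha2 against control Hsp90aa1 was at -1 ± 0.25 SE, limma adjusted p = 0.17, with -0.99 and -1.02 in the data numbers, and Vbeta5 against control was -0.6 ± 0.25 SE, limma adjusted p = 0.39. Vbeta5 against overnight control was 0.57 ± 0.25 SE, limma adjusted p = 0.559. A second Hsp90aa1 probe set, too dim to test, went the other way, at 6.1 and 12.5 in control, 62.5 and 29.5 in overnight control, 42.8 and 25.5 in Valpha2 and 41.2 and 18.7 in Vbeta5.

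Hsp90b1, the HSP90 of the endoplasmic reticulum, read 1046.8 and 1047 in control, 623 and 619.3 in overnight control, 720.1 and 708.2 in Valpha2 and 884.4 and 944.8 in Vbeta5. The arrays of each group lay close together and no 2 groups overlapped, in the order control, Vbeta5, Valpha2 and overnight control. Overnight control against control was -0.74 ± 0.21 SE, limma adjusted p = 0.246 (-0.73 and -0.74 within the data numbers), Valpha2 against control -0.54 ± 0.21 SE, limma adjusted p = 0.546, and Vbeta5 against overnight control 0.55 ± 0.21 SE, limma adjusted p = 0.449. The class median of overnight control against control was -0.957 beside 0.1 over all tested probe sets, and stayed between -1.093 and -0.821 when any single array was left out. B cell and macrophage marker sums were higher in overnight control than in control, and their part was not tested.

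The cochaperones were led by St13, known as Hip, which steadies HSP70 with bound ADP. Of the 4 tested probe sets of this class 3 were positive in Vbeta5 against overnight control, beside 48.7% of all tested probe sets. The class median was 0.723 beside -0.011 over all tested probe sets, and none was called. The median was 0.45 without overnight control array 1. The 2 probe sets of St13 showed 1 pattern. The first read 620.4 and 711.5 in control, 485.5 and 751.6 in overnight control, 646.4 and 887.2 in Valpha2 and 1220.8 and 1542.3 in Vbeta5, and the second 212.4 and 306.3 in control, 107.6 and 272.9 in overnight control, 139.9 and 320.2 in Valpha2 and 383.2 and 443.7 in Vbeta5. On both, the Vbeta5 arrays were the highest of the 8. Group means on the first were 1382 ± 227.3 against 618.6 ± 188.2 (SD, n = 2) for Vbeta5 against overnight control, a 2.24-fold ratio (log2 fold change 1.16 ± 0.28 SE, limma adjusted p = 0.124). On the second it was 1.18 ± 0.46 SE, limma adjusted p = 0.476. On the first, Vbeta5 against Valpha2 was 0.84 ± 0.28 SE, limma adjusted p = 0.364 and against control 1.03 ± 0.28 SE, limma adjusted p = 0.127. Without the 3 arrays of higher 3' to 5' ratio, St13 was called against control (1.19, limma adjusted p = 0.0293), with 1 Vbeta5 array left, which is assumed to vary like the control arrays.

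Stip1, known as Hop, joins HSP70 to HSP90, and read 324.9 and 314.4 in control, 240.8 and 245.5 in overnight control, 136.8 and 258.9 in Valpha2 and 160.7 and 343 in Vbeta5. Its lowest arrays were Data 1 of Valpha2 and of Vbeta5. Hspbp1, a nucleotide exchange factor, ranged from 159 to 342.3, with both Valpha2 arrays below all others.

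The J proteins (37 probe sets, 27 genes) went in both directions. Of 32 tested probe sets 15 were positive in Vbeta5 against overnight control, 21 in Valpha2 against overnight control and 16 in overnight control against control. Of all tested probe sets 48.7%, 46.9% and 58.7% were positive in these comparisons. The medians of the J proteins were -0.05, 0.048 and -0.019, each of which changed sign when 1 array was left out. Lower in Vbeta5 were Dnajc15, Dnajc7 and Dnajb8, and higher were Dnaja1 and Dnajb2, none of them called.

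Dnajc15, a mitochondrial J protein known as an inhibitor of respiratory complex I, read 369.2 and 490.1 in control, 291.8 and 789.2 in overnight control, 301.9 and 492.1 in Valpha2 and 134.8 and 199.1 in Vbeta5. Both Vbeta5 arrays lay below all others, while overnight control spanned 291.8 to 789.2. Vbeta5 against overnight control was -1.46 ± 0.44 SE, limma adjusted p = 0.263 (-1.02 and -1.90 within the data numbers), against Valpha2 -1.15 ± 0.44 SE, limma adjusted p = 0.47, and against control -1.29 ± 0.44 SE, limma adjusted p = 0.258. Without the 3 arrays of higher 3' to 5' ratio it was called lower than in overnight control (-1.90, limma adjusted p = 0.0133), but there 1 array stands against 1, the Data 2 difference alone. The spread in that fit comes from the control arrays only, and each lone array is assumed to vary like them.

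Dnajc7, a J protein that binds both HSP70 and HSP90, read 1311.9 and 1501.2 in control, 1378.9 and 1907.9 in overnight control, 1652.3 and 1701.8 in Valpha2 and 1037.3 and 1063.3 in Vbeta5. The Vbeta5 arrays were the lowest of the 8 (-0.62 ± 0.22 SE, limma adjusted p = 0.41 against overnight control, -0.67 ± 0.22 SE, limma adjusted p = 0.378 against Valpha2). Dnajb8, known from testis, was dim and read 7.3 and 39 in control, 169 and 44.3 in overnight control, 44.2 and 59 in Valpha2 and 18 and 22.2 in Vbeta5. Its overnight control value rests on array 1 (-1.53 ± 0.66 SE, limma adjusted p = 0.559 for Vbeta5 against overnight control, and 1.53 ± 0.66 SE, limma adjusted p = 0.521 for overnight control against control).

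Dnaja1, a farnesylated J protein of the cytosol, read 882.3 and 907.4 in control, 983.6 and 840.4 in overnight control, 1056.1 and 1208.5 in Valpha2 and 1469.3 and 1217.2 in Vbeta5. The Vbeta5 arrays were the highest of the 8 (0.55 ± 0.22 SE, limma adjusted p = 0.489 against overnight control, 0.57 ± 0.22 SE, limma adjusted p = 0.336 against control), and Valpha2 lay above overnight control too (0.31 ± 0.22 SE, limma adjusted p = 1). Dnajb2, best known from neurons, was dim and read 40.9 and 37.9 in control, 17.4 and 32.8 in overnight control, 48.1 and 56.1 in Valpha2 and 91.8 and 57 in Vbeta5, with overnight control lowest (1.12 ± 0.50 SE, limma adjusted p = 0.58 for Vbeta5 and 0.74 ± 0.50 SE, limma adjusted p = 1 for Valpha2). Dnajc9, a J protein that also chaperones histones H3 and H4, read 1191.3 and 1032.7 in control, 762.1 and 695.3 in overnight control, 796.1 and 829.8 in Valpha2 and 659.9 and 824.7 in Vbeta5. The control arrays were the highest (-0.6 ± 0.22 SE, limma adjusted p = 0.473 in overnight control and -0.58 ± 0.22 SE, limma adjusted p = 0.343 in Vbeta5).

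Dnajb1, the classical heat-inducible partner of HSP70, read 902.8 and 852.8 in control, 502.8 and 910.8 in overnight control, 583.6 and 828.4 in Valpha2 and 851.4 and 737.1 in Vbeta5. Overnight control and Valpha2 were low on array 1 alone, and the only separate pairs were control above Valpha2 and control above Vbeta5. Dnajb6, which holds back aggregation, was on 2 probe sets. One read 332.3 and 363.2 in control, 537.1 and 490.8 in overnight control, 499.7 and 402.6 in Valpha2 and 375.7 and 490.1 in Vbeta5, with the overnight control, Valpha2 and Vbeta5 arrays all above both control arrays. The other read 1186.4 and 1239.5 in control, 1046 and 1411.4 in overnight control, 1372.7 and 1482.5 in Valpha2 and 1127.3 and 1543.2 in Vbeta5, where only Valpha2 lay wholly above control.

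Of the J proteins of the endoplasmic reticulum, Dnajc3 was on 4 probe sets, 3 of them tested. One read 618.9 and 752.3 in control, 262 and 822.1 in overnight control, 443.9 and 779.6 in Valpha2 and 554.3 and 801.1 in Vbeta5. Another read 670.4 and 637.7 in control, 366.2 and 764 in overnight control, 678.9 and 610.5 in Valpha2 and 365 and 597.2 in Vbeta5. On both the lowest value was on a Data 1 array, of overnight control or Vbeta5, and these arrays had the raised 3' to 5' ratios, whose part was not tested. The last tested one ranged from 125.5 to 520.5. Dnajb11, a partner of Hspa5, read 227.5 and 291.5 in control, 165 and 285.8 in overnight control, 205.8 and 257.2 in Valpha2 and 186.5 and 287.3 in Vbeta5, with overlapping groups throughout. The 2 probe sets of Dnajb9 ranged from 37 to 92.9 and from 109.2 to 175.7, and on the second both control arrays lay below all others. Dnajc1 was on a tested probe set that ranged from 196.7 to 341.9 and was lowest in control, and Dnajc10 ranged from 398.9 to 616.8.

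Of the remaining J proteins, Dnajc8, which travels with the splicing machinery, ranged from 3113.9 to 4426.7 on one probe set and from 711.7 to 1569.6 on another. Dnajc2, which sits on ribosomes, ranged from 489.5 to 708.9 and from 445.7 to 677.2 on its 2 probe sets. Dnajc5, the cysteine string protein of vesicles, read 279.3 and 320 in control, 133.6 and 314 in overnight control, 138.8 and 287.9 in Valpha2 and 188.6 and 251.8 in Vbeta5, low on the 3 arrays of raised 3' to 5' ratio. Dnajb4 read 90.3 and 156.9 in control, 137.8 and 165.4 in overnight control, 64.8 and 160.8 in Valpha2 and 62.8 and 72.5 in Vbeta5, with both Vbeta5 arrays and Valpha2 array 1 below the other 5. Dnaja2 ranged from 81.6 to 202.5, Dnaja3 from 290.9 to 366, Dnajc4 from 78.1 to 175.1, Dnajc13 from 185.6 to 337.1, Dnajc17 from 167 to 264.1 and Dnajc21 from 68.2 to 141.9. Dnajc11 stood at 172.5 on Valpha2 array 1 and at 35.4 to 93.7 on the others. Dnajb13, known from cilia and flagella, ranged from 80.8 to 187.4 on its tested probe set. Dnajb5 was too dim to test, and of the 2 probe sets of Dnajb3 the tested one ranged from 17.9 to 95.1.

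**Figure D3:**
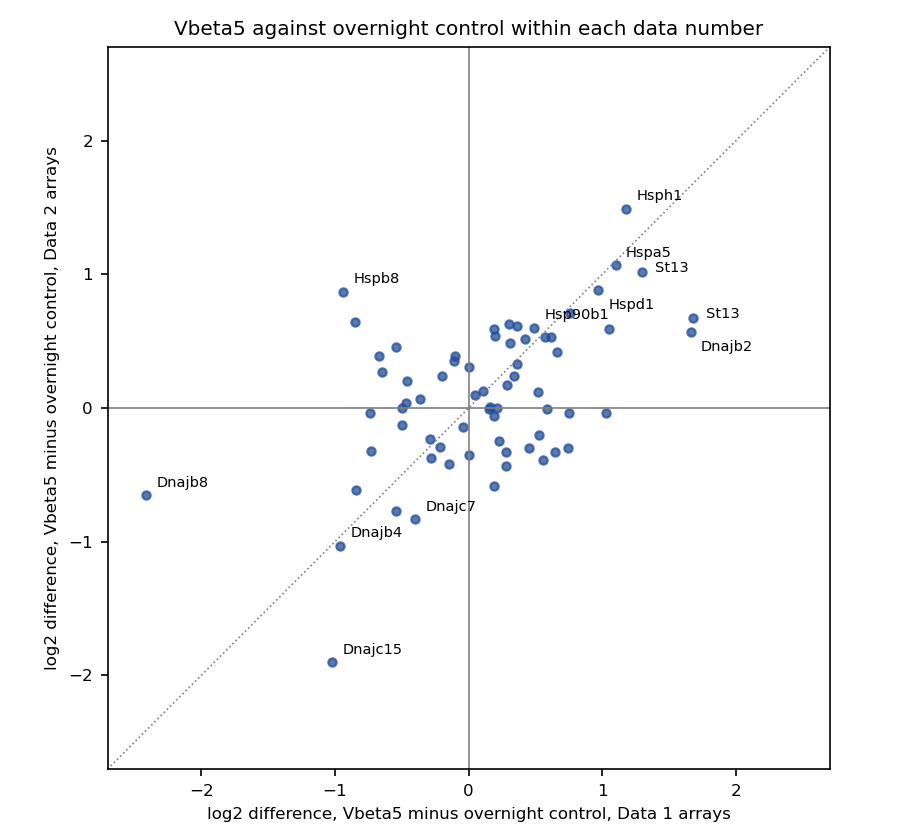
Difference in log2(signal + 17) between Vbeta5 and overnight control for the 68 tested member probe sets, within the Data 1 arrays (x axis) and within the Data 2 arrays (y axis), with equality as the dotted line. Both differences were positive for 25 probe sets, among them Hsph1, Hspa5 and St13, both were negative for 14, among them Dnajc15, and the signs differed or 1 was 0 for 29.

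The mitochondrial chaperonin varied widely between the arrays of a group. Hspd1, the HSP60 ring, read 2062.6 and 2011.2 in control, 555.7 and 1350.8 in overnight control, 515 and 1372.1 in Valpha2 and 1170.7 and 2039.3 in Vbeta5. The control arrays lay close together, above all arrays of overnight control and Valpha2. In each of the other 3 groups the lower value was on array 1, the array of raised 3' to 5' ratio. Overnight control against control was -1.21 ± 0.49 SE, limma adjusted p = 0.494, with -1.86 within Data 1 and -0.57 within Data 2, and Valpha2 against control was -1.26 ± 0.49 SE, limma adjusted p = 0.558. The part of the RNA quality was not tested. The second Hspd1 probe set read 112.3 and 98.1 in control, 84.1 and 71.5 in overnight control, 169.5 and 43.1 in Valpha2 and 180.7 and 145.9 in Vbeta5. It too had both overnight control arrays below both control arrays, with differences of -0.35 and -0.38 within the data numbers, but its Vbeta5 arrays lay above control and its Valpha2 arrays on both sides of it.

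Hspe1, the HSP10 lid of that ring, whose start lies beside that of Hspd1, read 460.4 and 680.3 in control, 367.3 and 642.8 in overnight control, 728.8 and 666.3 in Valpha2 and 496.6 and 929.2 in Vbeta5. The groups overlapped for most pairs, and only Valpha2 lay wholly above overnight control (0.5 ± 0.36 SE, limma adjusted p = 1). The median of the 3 probe sets was 0.82 in Vbeta5 against overnight control, and 0.192 without overnight control array 1.

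The cytosolic chaperonin CCT, a ring of 8 different subunits, stood near 0 as a class. All 8 genes were tested, on 11 of 13 probe sets, and the medians were 0.072 in Vbeta5 against overnight control, 0.127 in Valpha2 against overnight control and -0.067 in overnight control against control. Each changed sign when 1 array was left out. The subunits differed from each other in order and size.

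Cct2 read 216.9 and 219.7 in control, 345 and 341.4 in overnight control, 326.7 and 313.2 in Valpha2 and 281.4 and 260.5 in Vbeta5. Its 4 groups did not overlap, with control lowest and overnight control highest (0.61 ± 0.25 SE, limma adjusted p = 0.514 in overnight control against control, with 0.63 and 0.60 within the data numbers). Cct7 went the other way, at 1752.7 and 1445.7 in control, 1264.8 and 1274 in overnight control, 1281.6 and 1427.3 in Valpha2 and 1311.5 and 1371.3 in Vbeta5, with the control arrays highest. Cct4 read 1520.8 and 1503.5 in control, 1188.8 and 1806.4 in overnight control, 2432 and 1662.5 in Valpha2 and 1876.6 and 1433.9 in Vbeta5, and its Valpha2 value rests on array 1, the one of highest 3' to 5' ratio: Valpha2 against overnight control was 0.45 ± 0.27 SE, limma adjusted p = 1, with 1.02 within Data 1 and -0.12 within Data 2.

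Cct5 read 1908.4 and 1937 in control, 1702.8 and 2082.5 in overnight control, 2221 and 2220.6 in Valpha2 and 1895.3 and 2068.9 in Vbeta5 on one probe set, with Valpha2 the highest group, and 127.4 to 238.2 on another. Cct3 was on 3 probe sets. The first read 766 and 775.5 in control, 483.8 and 690.9 in overnight control, 495.5 and 850.9 in Valpha2 and 602.4 and 979 in Vbeta5, the second 540.7 and 589.2 in control, 410.6 and 566.8 in overnight control, 523.7 and 534.8 in Valpha2 and 532.6 and 714.9 in Vbeta5 and the last 291 and 270.4 in control, 272.3 and 332.2 in overnight control, 276.1 and 392.5 in Valpha2 and 314.3 and 489.9 in Vbeta5. On all 3 the highest array was Vbeta5 array 2. Control lay above overnight control on the first, above Valpha2 on the second and below Vbeta5 on the last, and all other pairs of groups overlapped.

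Cct8 read 433.7 and 658.6 in control, 396.1 and 627.3 in overnight control, 482.9 and 526.6 in Valpha2 and 454.4 and 600 in Vbeta5. Cct6a read 239.8 and 360.5 in control, 287.9 and 260.3 in overnight control, 296.4 and 228.1 in Valpha2 and 220.3 and 273.1 in Vbeta5 on its tested probe set, and Tcp1, the alpha subunit, 190.6 and 169.3 in control, 200.4 and 145.2 in overnight control, 222.2 and 158.9 in Valpha2 and 141 and 169.5 in Vbeta5. No pair of groups was separate on these 3 probe sets. A second probe set each of Cct6a and Tcp1 was too dim to test, at 7.3 to 58 and 2.4 to 32.3.

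**Figure D4:**
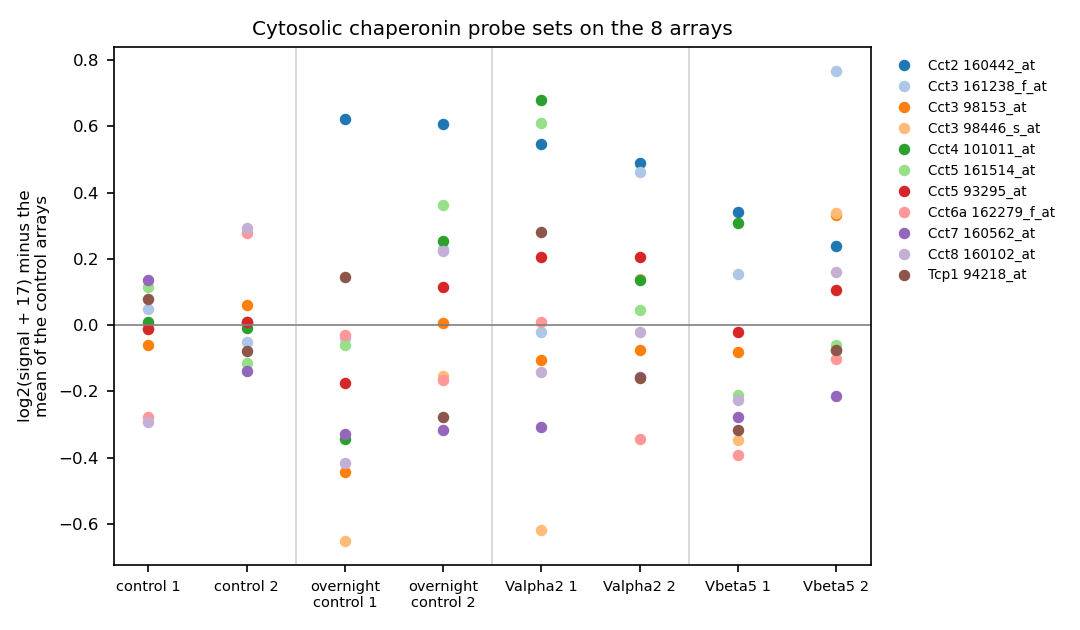
Log2(signal + 17) of the 11 tested CCT probe sets on each array, as the difference from the mean of the 2 control arrays. Cct2 lies above 0 on the 6 arrays of the other groups and Cct7 below 0 on the same 6, and the other subunits lie on both sides.

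The small heat shock proteins (6 probe sets, 4 genes) hold unfolded chains without ATP, except Hspb11, which is named with them and is known as a subunit of intraflagellar transport. All 3 tested probe sets of the class were negative in Vbeta5 against overnight control (median -0.196, and 0.048 without overnight control array 1), and none was called. Of all tested probe sets 48.7% were positive there. Hspb11 read 420.4 and 395.3 in control, 523.1 and 600.5 in overnight control, 658.8 and 577.2 in Valpha2 and 353.4 and 345.9 in Vbeta5. Its Vbeta5 arrays were the lowest of the 8 and its overnight control and Valpha2 arrays the highest (-0.66 ± 0.23 SE, limma adjusted p = 0.395 for Vbeta5 against overnight control, -0.79 ± 0.23 SE, limma adjusted p = 0.289 against Valpha2, and 0.58 ± 0.23 SE, limma adjusted p = 0.585 for Valpha2 against control). Hspb8, a partner of Bag3, read 93.6 and 53.1 in control, 278.6 and 67.9 in overnight control, 171.7 and 107 in Valpha2 and 137.1 and 137.7 in Vbeta5, and overnight control spanned 67.9 to 278.6. Hspb1, the classical member of the family, was too dim to test at 4.8 and 19.6 in control, 36.3 and 15.6 in overnight control, 9.2 and 9.5 in Valpha2 and 6.1 and 32.4 in Vbeta5. Hspb2, known from muscle, ranged from 107.7 to 289.8 on one probe set and from 3.9 to 10.7 on another.

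Hsf2, the only heat shock factor measured, was too dim to test, at 15.6 and 8.3 in control, 54.5 and 4.5 in overnight control, 41 and 8.5 in Valpha2 and 13.8 and 32.6 in Vbeta5. The values are scattered on both sides of 17, and the data numbers disagreed. The log2 difference of Vbeta5 from overnight control was -1.22 within Data 1 and 1.21 within Data 2.

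Other genes of protein folding and of stress responses were counted in 5 lists, 59 tested probe sets of 44 genes. They were called in 1 comparison only: 2 probe sets were higher in Vbeta5 than in control, and none was lower. Both were for Gadd45b, a stress-response gene of the last list below, and the other lists had no call in any comparison. One read 55.5 and 33.6 in control, 189.9 and 154.3 in overnight control, 155.3 and 157.2 in Valpha2 and 189.2 and 212.4 in Vbeta5 (log2 fold change 1.84 ± 0.35 SE, limma adjusted p = 0.0267), and the other gave 2.03 ± 0.43 SE (limma adjusted p = 0.0458). On both the control arrays were the lowest. Over the whole table, Vbeta5 against control had 1 higher and 1 lower call without control array 1 and 0 calls without control array 2. The medians of the 59 in Vbeta5 against overnight control and in overnight control against control were 0.07 and -0.1. By list, in Vbeta5 against overnight control, the median was 0.13 for 23 probe sets of HSP90 and HSP70 cochaperones, 0.08 for 12 of endoplasmic reticulum folding, -0.03 for 6 of prefoldin and CCT helpers, 0.04 for 9 of mitochondrial import and quality control and 0.09 for 9 of other heat shock factor targets and stress-induced ubiquitin. The last list stood at 0.74 in overnight control against control and at 0.71 in Valpha2 against control, with 6 of 9 probe sets above both control arrays in each, beside 21.6% and 25.8% of all tested probe sets. In Vbeta5 against control it stood at 0.4, also with 6 of 9, beside 29.3%. B cell and macrophage marker sums were higher than in control in the same 3 groups, and array 1 of each group had the raised 3' to 5' ratio. The part of the marker sums and of the ratio was not tested. The lists were chosen with earlier results known and are no independent support.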

How the data were processed

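The authors deposited 1 table of linear signal intensity per probe set for the 8 arrays, normalized per the labels; their method and software are not named in the labels. Detection calls were not used, and with 2 arrays per group the precision is limited. Leaving out 66 control probe sets gave 12422. Genes came from the platform annotation, which gave 1 symbol to 10833 probe sets and several to 396. The deposited intensity was used without further scaling as log2(signal + 17), 17 being the 20th percentile of the positive values after rounding, so fold changes of dim probe sets are understated. Probe sets among the dimmest 33.3%, judged by their mean over all arrays, were not tested.

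limma 3.58.1 in R 4.3.3 fitted 1 mean per group over all 8 arrays (eBayes with a variance trend, 4 residual degrees of freedom), with Benjamini-Hochberg adjustment over the 8281 tested probe sets within a comparison. All p-values are two-sided. With 2 arrays on each side the smallest p of an exact permutation test is 0.333, so none was run. The fit was tested on simulated data.

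The members and gene lists were chosen with earlier results of these data known. Values on every array are given for a fixed set of well-known members and for the 4 members of smallest p in each comparison, and for others as their class is described. The alternatives were other scalings, offsets and dim filters, no variance trend, the data number as a block, only the arrays compared, each array left out, and, chosen after seeing the data, the 3 arrays of raised 3' to 5' ratio left out.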

Additional observations from a re-analysis of the deposited data

How the results depend on the processing

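Members called stayed at 0 in the 6 comparisons, except as follows. With the data number as a replicate block, 4 members were called in Vbeta5 against overnight control (Hsph1, Hspa5, St13 and Dnajc15), 3 in Vbeta5 against control (St13, Hspa4l and Dnajc15) and 1 in overnight control against control (Hsp90aa1); calls over all probe sets were 125, 242 and 107. The numbers were not taken to pair the arrays, since the labels do not say what they share and each comparison has 2 pairs; arrays of the same number correlated at 0.104 to 0.347 in their deviations from the group means. Leaving out 1 array gave 0 to 1 calls in overnight control against control, the call coming without overnight control array 2. Without the dimmest 50% of the probe sets, 1 of 60 members tested (Hsph1) was called in Vbeta5 against overnight control, beside 54 of all 6211 probe sets tested. Without the 3 arrays of raised 3' to 5' ratio, chosen after seeing the data, all groups but control have 1 array. There Dnajc15 was at -1.9 in Vbeta5 against overnight control. In Vbeta5 against control Hspa5 was at 1.3 and St13 at 1.19. The calls of these genes, given above, rest on the spread of the control arrays alone.

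The median over the members in overnight control against control was -0.292 with a common median, 0.157 without the 3 arrays and -0.219 to 0.157 when 1 array was left out. In Vbeta5 against control it was -0.082 with a common median. Leaving out 1 array gave -0.002 to 0.245 in Vbeta5 against overnight control and -0.008 to 0.257 in Valpha2 against overnight control. The common median moved the median of all tested probe sets from 0.1 to -0.126 in overnight control against control, from 0.079 to -0.117 in Vbeta5 against control and from 0.07 to -0.067 in Valpha2 against control. Of 770 alternative values of 43 named differences, 757 kept direction and side of the threshold, 12 came to pass it and 1 reversed: Cct4 in Valpha2 against overnight control, at -0.12 without the 3 arrays. The cause of that reversal was not tested. Part of the 757 was fixed in advance. The 43 were picked by small p in these same data, and none passed in the main fit. Leaving out an array outside a comparison, or the variance trend, cannot change its fold change. Signals near 17 have no separate measure of background, which limits Hsf2, Hspb1 and the dim J proteins.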
